A study of Rattus norvegicus with 241 samples.

Results

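Basal cells were compared between the normal mammary glands of TGFBRi-treated rats that stayed free of tumors and of TGFBRi-treated rats that carried one. The members were the bulk RNA-seq tables labelled as normal gland, basal, drug and either tumor-free or tumor-bearing, which gave 6 of the 241 samples of the series, 3 in each group, with 1 rat per sample. All 6 rats were outbred virgin female Sprague-Dawley (SD) rats. TGFBRi was galunisertib, a small molecule that inhibits the kinase of the type I TGF-beta receptor TGFBR1. It was given by gavage at 75 mg/kg per dose, with 2 doses a day, for 10 days to young rats. Their age at the first dose was 21 days by the methods of the study, while its results text gives an older age. A single injection of the carcinogen N-nitroso-N-methylurea (NMU) at 50 mg/kg followed, and glands were taken 87 days after it. The drug had therefore ended long before the cells were sorted, and tumor status at collection was the only difference the labels give between the groups. Rats were placed in these groups by outcome and not by assignment, so whatever else came with a tumor cannot be told apart from tumor status. The glands are normal by label. The paper reports proliferative lesions in the grossly normal glands of some tumor-bearing rats, with or without the drug. Glands of the tumor-free rats were histologically normal. Which of the rats used here had lesions is not given, and the part of lesions in the results was not tested. The 3 vehicle rats with NMU tumors, treated alike except for the drug, served as reference, and the luminal cells of the same rats were used for comparison. Vehicle rats without a tumor were not analysed here.

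Basal cells form the outer layer of the mammary epithelium. They contract to eject milk, lay down basement membrane, and carry keratins 5 and 14 together with smooth muscle proteins. TGF-beta ligands bind the receptor pair TGFBR1 and TGFBR2, which passes the signal to SMAD transcription factors, and the pathway restrains growth of normal mammary epithelium. Respiratory chain complexes I to IV move electrons in the inner mitochondrial membrane and ATP synthase uses the proton gradient they build, while cytosolic ribosomal proteins form the subunits that translate mRNA.

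The basal fraction was sorted as CD24+CD29high after cells carrying CD31 or CD45 were removed. Its identity was held against markers. The summed level of 8 basal markers, in CPM (reads on a gene scaled to the library's reads on all genes), lay between 20499 and 31456 in the tumor-free rats, 29430 and 35986 in the tumor-bearing rats and 24483 and 28900 in the vehicle rats. The 7 luminal markers summed to 5362 to 6592, 4303 to 5948 and 4919 to 6108 in the same order, so luminal transcripts were present in every library. KRT5, a basal keratin, was measured at 1431 to 3462 CPM in the 6 samples and at 31.6 to 95.1 in the luminal samples of the same rats. Reads on genes were between 12967350 and 18207005 in the 6 samples, and the difference by tumor status did not pass (exact permutation test, two-sided p = 0.2, n = 3 against 3). The number of genes above 0 was 12345, 13217 and 12185 in tumor-free rats 1 to 3 and 11476, 12089 and 10684 in tumor-bearing rats 1 to 3. These ranges did not overlap (p = 0.1, the smallest the exact test can give with 3 against 3), and the part of detection in the results below was not tested. Tumor-bearing rat 3 lay farthest out on the first principal component and tumor-bearing rat 1 on the second.

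A total of 261 genes were higher and 482 lower in basal cells of the tumor-free rats than in those of the tumor-bearing rats (limma on log2(normalized value + 1), Benjamini-Hochberg adjusted p of 0.05 or less). Of 13312 genes tested, this was 5.58% in either direction, 1.96% higher and 3.62% lower. Bulk profiles cannot separate fewer cells of a type from less RNA per cell, and this holds for every value that follows. All log2 differences are given as tumor-free minus tumor-bearing unless another pair is named. The median over all genes was 0.24, so a gene with a difference of 0.24 sat at the centre of the distribution. When samples were centred on the median of well-measured genes, the split was 185 higher and 573 lower. The balance turned in other fits, with 1124 higher and 994 lower with all 17 SD basal samples, 1083 and 917 without tumor-bearing rat 1, and 7 and 3 in limma without trend and robust variances. Each of the 9 libraries carried weight, since the total was 94 without tumor-free rat 1, 399 without rat 2 and 235 without rat 3. It was 2000 without tumor-bearing rat 1, 592 without rat 2, 324 without rat 3, and 359, 367 and 432 without vehicle rats 1, 2 and 3. With only the 6 TGFBRi samples fitted, 9 genes were higher and 92 lower. Among the genes named as called in what follows, NETO2, PLXND1, ABCA1, RAPGEF3, MMS22L, DLL1, FGFR1, S100A6, SOX10, CAR3, COL8A1, COL14A1, GMNN, HMOX1, IFIT3, LMTK2, LOC691921, RARA, SLC8B1, TIMP4 and MT1 passed in 10 or fewer of up to 20 alternatives, so their calls are the least secure.

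The respiratory chain was the list with the most called genes. Of 48 tested nuclear-encoded subunits (52 listed), 35 were lower in the tumor-free rats and 0 higher, against 3.62% and 1.96% of all genes tested. All 48 had a negative log2 difference, from -2.60 to -0.25, and their median was -1.50, or -1.74 relative to the median of all genes. In 43 of the 48 every tumor-free value lay below every tumor-bearing value, a pattern seen in 11.6% of all genes tested. Summed over the 48 genes, tumor-free rats 1 to 3 had 9197, 10475 and 10803 CPM. Tumor-bearing rats 1 to 3 had 20180, 26015 and 24334. The lowest tumor-bearing library was thus well above the highest tumor-free one, and the 3 vehicle libraries, at 13181, 11769 and 10536, lay near the tumor-free values. Such a sum can differ widely between libraries that share a label, since in luminal cells of the vehicle rats it ran from 10910 to 53410. The part of such differences between libraries in the basal gap was not tested.

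**Figure D1:**
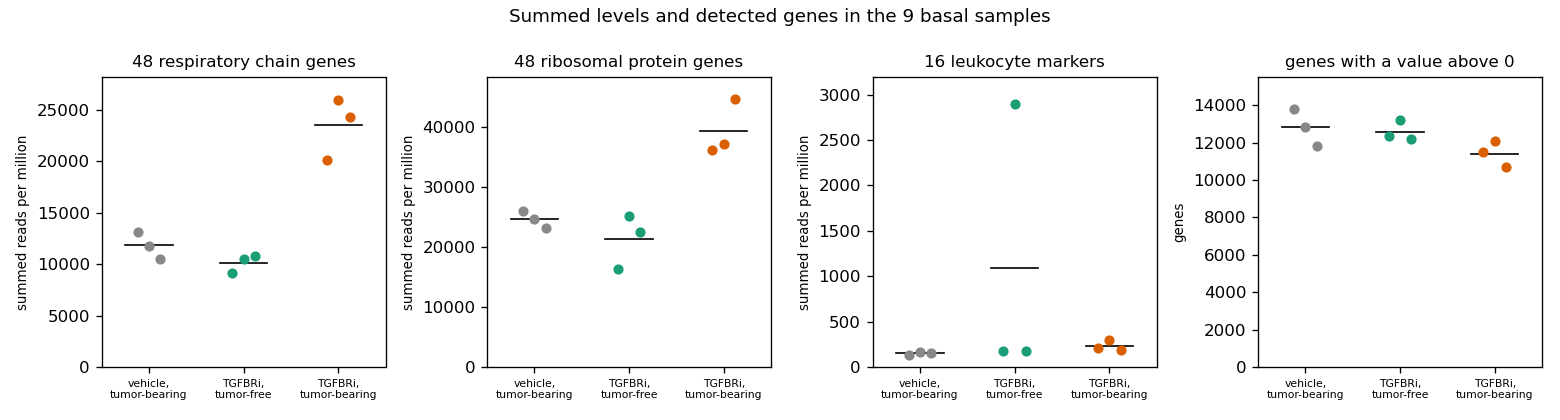
Summed level in CPM of 48 respiratory chain genes, 48 ribosomal protein genes and 16 leukocyte markers, and the number of genes above 0, in each of the 9 basal samples. Points are rats and lines are group means. In the first 2 panels the 3 TGFBRi tumor-bearing rats sit above the other 6 rats, in the third tumor-free rat 2 stands alone at 2902, and in the fourth the tumor-bearing rats reach 12089 genes at most.

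The subunits were called in every complex. Complex I, the NADH dehydrogenase, had 20 of 26 tested subunits lower, with a median of -1.56. NDUFB9, an accessory subunit of it, had normalized values of 2398, 3335 and 3281 in the tumor-free rats and 11126, 12338 and 13821 in the tumor-bearing rats. The groups were far apart and each was tight, giving a log2 difference of -2.06 (SE 0.22, limma adjusted p = 0.0017). In vehicle rats its values were 4432, 3400 and 3373. NDUFB3, another accessory subunit, had the lowest difference in this complex, -2.53 (SE 0.40, adjusted p = 0.00556), from 79.5, 174 and 112 against 525, 646 and 903. The core subunits NDUFS8 and NDUFV2, which hold iron-sulfur clusters, differed by -1.73 and -1.58 (adjusted p = 0.00548 and 0.0074).

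Complex II, the succinate dehydrogenase, had 3 of 4 subunits lower with a median of -1.06. SDHB, its iron-sulfur subunit, had values of 2138, 2306 and 2282 against 4629, 5348 and 5584 and a difference of -1.21 (SE 0.23, adjusted p = 0.014). Complex III, which passes electrons from ubiquinol to cytochrome c, had 4 of 6 lower with the most negative median of the complexes, -1.79. Its small subunit UQCR10 was at 1381, 2545 and 2191 against 7768, 9867 and 10645, with a difference of -2.24 (SE 0.26, adjusted p = 0.00182). Tumor-free rat 1 was the lowest for UQCR10, yet the other tumor-free rats were also below every tumor-bearing rat.

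Complex IV, the cytochrome c oxidase, had 7 of 9 tested subunits lower with a median of -1.62. COX7A2, a small nuclear-encoded subunit, had the most negative difference of the whole list. Its values were 553, 1055 and 964 in the tumor-free rats, 4908, 3796 and 6786 in the tumor-bearing rats and 1321, 1250 and 1204 in the vehicle rats. The difference was -2.60 (SE 0.29, adjusted p = 0.00182). Of ATP synthase, 2 subunits of the list were tested and 1, the F1 head subunit ATP5A1, was lower with a difference of -0.98 (SE 0.23, adjusted p = 0.0288). Under their older symbols ATP5O, ATP5E and ATP5J2, further ATP synthase subunits outside the list, differed by -2.26, -2.33 and -2.24 (adjusted p = 0.0017, 0.002 and 0.00359). These 3 were chosen after their values were seen.

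**Figure D2:**
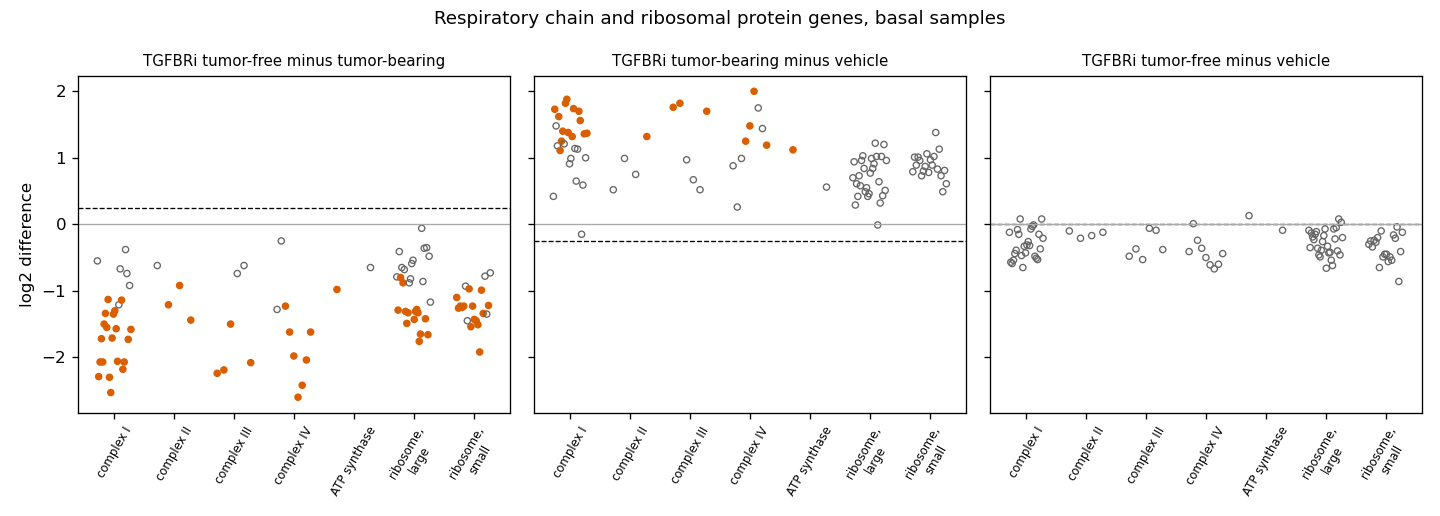
Log2 differences of respiratory chain genes by complex (grouped by symbol) and of ribosomal protein genes by subunit in basal cells, for tumor-free minus tumor-bearing TGFBRi rats, tumor-bearing TGFBRi minus vehicle rats and tumor-free TGFBRi minus vehicle rats. Each circle is a gene, filled where the limma adjusted p was 0.05 or less, and the dashed line is the median of all genes tested (0.24 in the first panel); the 3 panels share samples, all points of the first panel lie below 0, and no point is filled in the third.

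With edgeR or DESeq2 on recovered reads, 36 and 41 respiratory subunits were lower. Without trend and robust variances limma called 0 of the 48 and only 10 genes in all, and with only the 6 TGFBRi samples, or without tumor-free rat 1, it called 22. The median over the list stayed between -1.62 and -1.36 in every alternative run.

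RefSeq promoter windows (build GRCr8, 250 bases before to 50 after the gene start, matched by symbol) were available for 40 of the 48 respiratory genes and for 10685 of the 13312 tested genes. The letters CCGGAAG, the core of ETS-family sites, on either strand were in 35% of the respiratory promoters, in 26.3% of promoters of all genes lower in tumor-free rats, in 12.8% of those higher and in 15.6% of those tested. The letters AAGATGGCG, a YY1 site, were in 20%, 4.91%, 3.67% and 3.24% in the same order. GCGCATGC, the core of an NRF1 site, was in 7.5%, 6.63%, 5.05% and 4.42%, and the E-box CACGTG in 5%, 10.3%, 7.34% and 8.82%. Over all 27457 promoters of the table the shares were 9.22%, 1.93%, 2.66% and 6.65% for the 4 motifs in the order given. The ETS and YY1 letters can share the bases AAG, and a match of letters is a description and not a bound site. Of the called respiratory genes, 14 held ETS or YY1 letters. The 4 windows below are those of the 4 genes with the smallest limma p among these 14. The genes encode a subunit of complex IV, 2 of complex I and 1 of complex III, and the matches are in capitals. All 4 are on the minus strand and read 5′ to 3′ along the gene, from chr8:89601100-89601399 (COX7A2), chr1:253362887-253363186 (NDUFB8), chr18:28631835-28632134 (NDUFA2) and chr10:38089929-38090228 (UQCRQ).
COX7A2: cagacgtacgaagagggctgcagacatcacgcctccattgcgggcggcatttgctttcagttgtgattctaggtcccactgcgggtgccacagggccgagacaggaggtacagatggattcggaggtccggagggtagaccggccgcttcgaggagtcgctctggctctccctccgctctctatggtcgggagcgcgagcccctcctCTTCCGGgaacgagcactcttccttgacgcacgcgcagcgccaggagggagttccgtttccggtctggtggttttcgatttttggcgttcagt
NDUFB8: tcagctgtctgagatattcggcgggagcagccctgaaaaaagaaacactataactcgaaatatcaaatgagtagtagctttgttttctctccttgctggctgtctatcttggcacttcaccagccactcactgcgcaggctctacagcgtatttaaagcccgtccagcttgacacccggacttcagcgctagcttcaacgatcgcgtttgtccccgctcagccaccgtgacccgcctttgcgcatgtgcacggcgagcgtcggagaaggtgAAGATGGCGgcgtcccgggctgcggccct
NDUFA2: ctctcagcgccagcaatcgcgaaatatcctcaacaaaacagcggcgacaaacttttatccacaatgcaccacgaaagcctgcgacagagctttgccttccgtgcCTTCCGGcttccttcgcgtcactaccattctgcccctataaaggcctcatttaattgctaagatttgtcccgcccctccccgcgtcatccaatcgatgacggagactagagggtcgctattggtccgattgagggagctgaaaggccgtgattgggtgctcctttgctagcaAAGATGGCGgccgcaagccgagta
UQCRQ: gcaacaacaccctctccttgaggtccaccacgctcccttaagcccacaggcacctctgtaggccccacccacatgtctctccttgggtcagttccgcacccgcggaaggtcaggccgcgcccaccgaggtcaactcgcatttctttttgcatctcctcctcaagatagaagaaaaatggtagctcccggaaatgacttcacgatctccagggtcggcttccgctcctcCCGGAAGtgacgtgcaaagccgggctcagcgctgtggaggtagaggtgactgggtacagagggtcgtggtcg
The window of COX7A2 holds the ETS letters as their reverse complement, that of NDUFB8 the YY1 letters just after the start, that of NDUFA2 both, and that of UQCRQ the ETS letters as written. NDUFB8 differed by -1.57 (SE 0.21, adjusted p = 0.0027), NDUFA2 by -2.29 (SE 0.31, adjusted p = 0.0027) and UQCRQ by -2.08 (SE 0.28, adjusted p = 0.00271).

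Cytosolic ribosomal protein genes were also lower in the tumor-free rats. Of 48 tested (50 listed), 29 were lower and 0 higher, beside 3.62% and 1.96% of all genes, all 48 log2 differences were negative, and their median was -1.23, or -1.47 relative to all genes. In 44 of them the tumor-free values all lay below the tumor-bearing ones, against 11.6% of all genes tested. The ETS letters were in 29.7% of 37 matched ribosomal promoters and the YY1 letters in 2.7%. The small subunit had 15 of 20 lower (median -1.24) and the large subunit 14 of 28 (median -0.88). Summed levels were 16294, 25186 and 22459 CPM in tumor-free rats 1 to 3 and 36158, 37214 and 44658 in tumor-bearing rats 1 to 3. Vehicle rats had 26071, 24686 and 23206, so here too the tumor-bearing TGFBRi rats were the high group. In luminal cells of the vehicle rats the ribosomal sum ran from 35235 to 130969, so it too can differ widely between libraries that share a label. Many ribosomal protein genes have processed pseudogenes, and how multi-mapping reads divided among them is not known from these tables, so single values are uncertain.

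RPS29, a small-subunit protein, was at 1478, 4339 and 3637 against 11615, 9306 and 11675, a difference of -1.92 (SE 0.33, adjusted p = 0.00815). Tumor-free rat 1 was the lowest library for it, as for most of these genes. RPL37 and RPL9, proteins of the large subunit, differed by -1.76 and -1.66 (adjusted p = 0.0146 and 0.0107). The count leaned on single libraries more than that of the respiratory chain. It was 2 without tumor-free rat 1, 9 without tumor-free rat 3, 8 without tumor-bearing rat 3, 15, 17 and 15 without vehicle rats 1, 2 and 3, and 0 with only the 6 TGFBRi samples or without trend and robust variances. The median ranged from -1.46 to -0.89 over all 20 alternatives, the ends being without tumor-free rat 2 and without tumor-free rat 1.

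Basal and contractile genes differed in part. Of 15 myoepithelial contractile genes tested, 3 were lower in the tumor-free rats and 0 higher, where 3.62% of all genes were lower and 1.96% higher, and their median was -0.37 beside 0.24 for all genes. MYL9, the regulatory myosin light chain of smooth muscle, was at 24396, 28378 and 45354 in the tumor-free rats and 95580, 68617 and 74426 in the tumor-bearing rats. The groups did not overlap and the difference was -1.32 (SE 0.25, adjusted p = 0.0122). In vehicle rats MYL9 was at 27950, 29073 and 37957. ACTG2, smooth muscle gamma-actin, and TPM2, a tropomyosin of the same filaments, differed by -1.17 and -1.01 (adjusted p = 0.0302 and 0.0343). ACTA2, smooth muscle alpha-actin and a standard myoepithelial marker, did not pass the test. Its values of 28267, 47578 and 77318 overlapped with 104665, 26873 and 31273, and its difference of 0.08 (SE 0.48, adjusted p = 0.942) turned negative under edgeR, DESeq2 and centring.

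Of 12 tested basal keratin and identity genes 1 was lower and 0 higher, beside 3.62% and 1.96% of all genes, so the count is no result about the list. The 1 gene was LGALS7, galectin-7, a lectin of stratified and basal epithelium. It was at 7977, 8020 and 12099 against 29454, 55778 and 56576, with 15590, 15209 and 16743 in vehicle rats, and differed by -2.30 (SE 0.27, adjusted p = 0.00182). The keratins themselves did not pass. KRT14 differed by -0.73 (adjusted p = 0.0811) from 121505, 102696 and 169194 against 180798, 273670 and 194096, and KRT5 by -0.79 (adjusted p = 0.0912). The luminal keratins KRT8 and KRT18 each differed by 0.24 (adjusted p = 0.547 and 0.623), the same as the median of all genes. Of 22 luminal markers 0 were called, beside 5.58% of all genes. SOX10, a transcription factor of basal and neural crest cells, was higher at 7529, 7076 and 9203 against 5214, 4038 and 2531 (1.07, SE 0.27, adjusted p = 0.0402). Of 30 genes of the secretory basal cell list 1 was lower, S100A6 (-1.16, adjusted p = 0.0477), which is near the 3.62% of all genes. The list's median was 0.00 beside 0.24 for all genes. The study's signature of these cells is longer than this list. That signature was drawn from single cells of this series, so the list is no independent evidence of a direction.

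**Figure D3:**
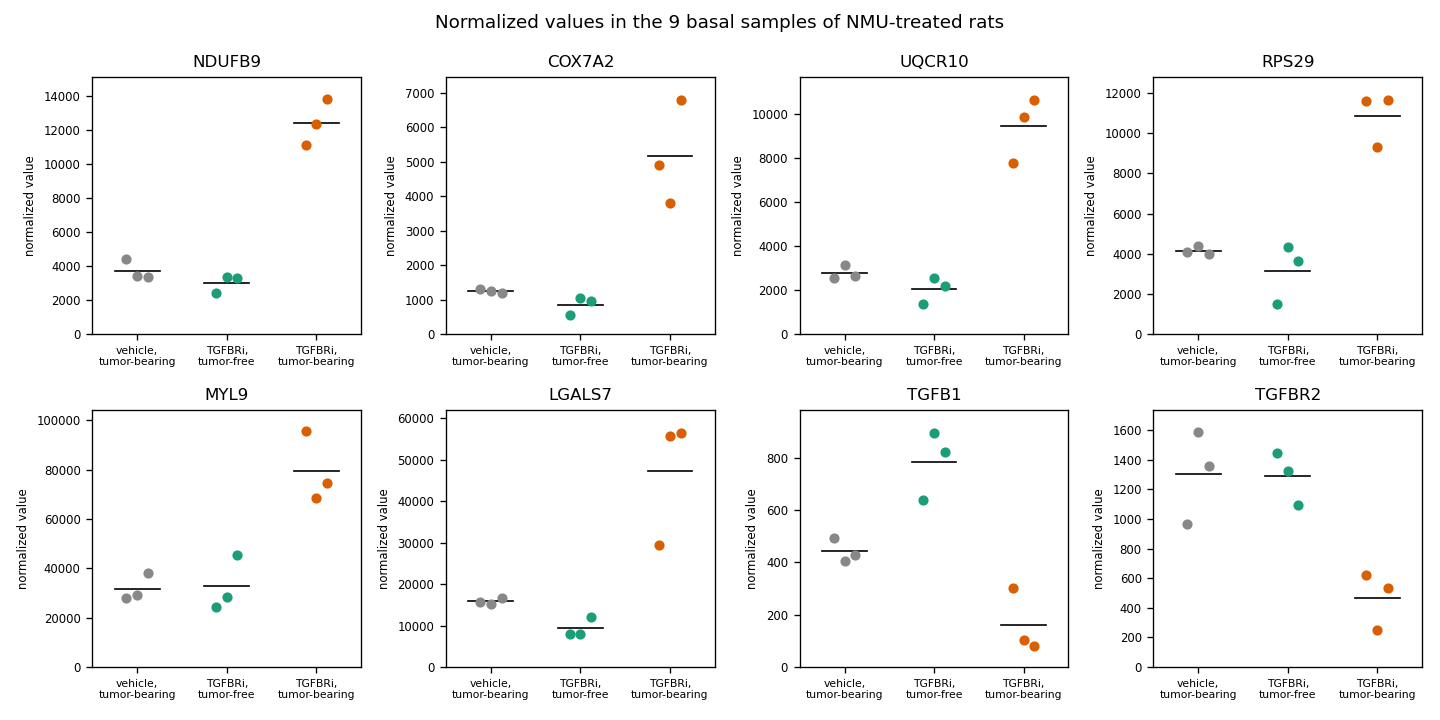
Normalized values of 8 genes in the 9 basal samples, on linear axes from 0, with points for rats and lines for group means. NDUFB9, COX7A2, UQCR10, RPS29, MYL9 and LGALS7 are lowest or near the vehicle level in the tumor-free rats and highest in the tumor-bearing TGFBRi rats, while TGFB1 and TGFBR2 are lowest in the tumor-bearing TGFBRi rats.

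Within the pathway that the drug targets, 1 of 9 ligands and 1 of 12 receptors were called, both higher in the tumor-free rats, where 1.96% of all genes were higher. TGFB1, the most widely expressed TGF-beta ligand, was at 639, 894 and 820 in the tumor-free rats and at 301, 102.8 and 80.4 in the tumor-bearing rats. Vehicle rats lay between, at 494, 406 and 427. The difference was 2.51 (SE 0.43, adjusted p = 0.00815), and TGFB1 was called in 18 of 20 alternatives. TGFBR2, the type II receptor that binds ligand first, was at 1447, 1323 and 1097 against 623, 250 and 534 and differed by 1.55 (SE 0.34, adjusted p = 0.0235). Its vehicle values of 967, 1585 and 1359 covered the tumor-free range. TGFB1 was at 31 to 116 CPM in CD45 samples of NMU-treated rats and at 4.69 to 58.3 CPM in the 6 basal samples. The CD45 samples also held KRT14. It was at 250 to 430 CPM in the tumor-free, 511 to 7039 in the tumor-bearing TGFBRi and 163 to 278 in the vehicle rats.

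The rest of the pathway did not pass. TGFBR1, the target of galunisertib, had values of 136, 153 and 74.9 against 143, 31.9 and 155 and a difference of 0.37 (SE 0.62, adjusted p = 0.763), and its groups overlapped. TGFB2 and TGFB3 differed by 0.21 and 0.23 (adjusted p = 0.888 and 0.725) and the co-receptor TGFBR3 by 0.32 (adjusted p = 0.656). Of 16 SMADs and feedback inhibitors 0 were called, with a median of 0.56. SMAD3, which carries the receptor signal to DNA, came nearest at 1963, 2159 and 2110 against 1731, 449 and 836 (1.26, adjusted p = 0.0657). Of 21 TGF-beta and YAP target genes 0 were called, with a median of 0.41. With 5.58% of all genes called in either direction, these counts of 0 are no result about the SMAD or target lists. PMEPA1, a target that also dampens the pathway, differed by 0.96 (adjusted p = 0.0779), and passed only without tumor-bearing rat 1 (1.32, adjusted p = 0.0065). The inhibitory SMAD7 differed by 0.18 (adjusted p = 0.838), and ID1 and ID3, targets of the BMP branch, by -0.57 and -0.13 (adjusted p = 0.207 and 0.822).

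Of 17 tested NRF2 target genes, which serve the oxidative stress response, 3 were higher and 1 lower, where 1.96% of all genes were higher and 3.62% lower. HMOX1, heme oxygenase, was at 104308, 104181 and 89354 in the tumor-free rats against 73333, 31250 and 20213 (1.46, SE 0.36, adjusted p = 0.0362). GCLC, the enzyme subunit that limits glutathione synthesis, was at 2776, 1709 and 1458 against 773, 484 and 607 (1.64, SE 0.32, adjusted p = 0.0144). TXNRD1, thioredoxin reductase, differed by 1.23 (adjusted p = 0.0285). GSTA1, a glutathione transferase, went the other way at 1053, 1665 and 2195 against 5679, 4219 and 13763 (-2.14, SE 0.39, adjusted p = 0.0105). The metallothioneins MT1 and MT2A, metal-binding proteins in the glucocorticoid-responsive list, were lower with differences of -1.42 and -1.35 (adjusted p = 0.0449 and 0.037), and so was HSPE1, the mitochondrial co-chaperonin, at -1.33 (adjusted p = 0.0235), the 1 called gene of 13 heat shock chaperones. The integrated stress response, p53 response and immediate early lists had 0 called genes, beside 5.58% of all genes.

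Cell cycle genes were mostly below the threshold. Of 37 tested S phase genes 2 were lower and of 47 G2/M genes 2 were higher, beside the 3.62% of all genes that were lower and the 1.96% that were higher, so nothing is read from these counts about the lists. MCM3, a subunit of the replicative helicase, was at 28.4, 175 and 52.2 against 242, 920 and 453 (-2.84, SE 0.68, adjusted p = 0.0317), and GMNN, geminin, which blocks relicensing of origins, differed by -1.49 (adjusted p = 0.0467). CDK4, the G1 kinase, was at 2358, 1759 and 2020 against 3045, 7855 and 6032 (-1.37, SE 0.31, adjusted p = 0.0251). The G2/M genes were ANP32E (1.46, adjusted p = 0.0147), a histone chaperone, and RANGAP1 (1.20, adjusted p = 0.0382), which acts in nuclear transport. The list medians were -0.30 for S phase and -0.12 for G2/M, beside 0.24 for all genes.

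Single genes passed in several signalling, adhesion and matrix lists. With 1.96% of all genes higher and 3.62% lower, counts of 1 or 2 genes are no result about a list. WNT5B, a Wnt ligand, was at 1508, 1351 and 1327 against 650, 457 and 284 (1.66, SE 0.30, adjusted p = 0.0101) and was the 1 called gene among 27 of its list. DLL1, a Notch ligand, and FGFR1, a fibroblast growth factor receptor, differed by 1.06 and 1.38 (adjusted p = 0.0448 and 0.0419), the 1 called gene of 15 and of 14 in their lists. Of 24 axon guidance genes 3 were higher, which were SEMA4D, PLXND1 and EFNB1, with differences of 1.65, 2.54 and 1.04 (adjusted p = 0.0252, 0.0485 and 0.0222). Of 24 junction genes 2 were higher, PKP1, a desmosomal plakophilin, at 4934, 2436 and 3643 against 1527, 1126 and 459 (1.93, SE 0.39, adjusted p = 0.0162), and CTNNA1, alpha-catenin (1.10, adjusted p = 0.0252). LAMB2, a laminin chain of basement membrane, differed by 0.99 (adjusted p = 0.0239), the 1 called gene of 19 integrins and laminins. Of 20 collagen genes COL8A1 was higher (2.30, adjusted p = 0.0449) and COL14A1 lower (-1.69, adjusted p = 0.0416), and the metalloproteinase inhibitor TIMP4 was lower (-1.47, adjusted p = 0.0416).

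The circadian genes CRY1, a repressor of the clock, and CLOCK, its activator, were higher by 1.77 and 2.26 (adjusted p = 0.0201 and 0.039), 2 of 15 tested where 1.96% of all genes were higher, and so few genes are no result about the list. RARA, a retinoic acid receptor, differed by 0.99 (adjusted p = 0.0463). SH2B3, an adaptor that damps cytokine receptor signalling, was at 1311, 1057 and 1131 against 337, 279 and 207 (2.11, SE 0.28, adjusted p = 0.0027). SH2B3 was chosen after its values were seen. IGFBP2, which binds insulin-like growth factors and was among the most abundant of the called genes, was lower at 98078, 59459 and 89961 against 149528, 221875 and 140699 (-1.05, SE 0.24, adjusted p = 0.0251). Of 22 interferon-stimulated genes IFIT3 was higher (2.55, adjusted p = 0.0463) and IFI27 lower (-1.08, adjusted p = 0.0231), beside 1.96% and 3.62% of all genes.

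By size of difference alone, the 10 genes highest in the tumor-free rats among called genes with a mean value of at least 50 and no overlap were RBM6, MERTK, SLC22A23, EPB41L4A, ABCA1, RAPGEF3, SLC8B1, LMTK2, NETO2 and URB2, from 5.17 down to 3.15. RBM6, an RNA-binding splicing regulator, was at 213, 117 and 88.7 against 2.66, 0 and 12.1, with 187, 77.3 and 130 in vehicle rats (adjusted p = 0.00926). MERTK, a receptor kinase for clearance of dying cells, was at 318, 149 and 136 against 1.33, 49.9 and 1.1 (4.89, SE 1.01, adjusted p = 0.0181). ABCA1, the cholesterol efflux transporter, differed by 4.04 (adjusted p = 0.0445). All 10 passed the mean through the tumor-free rats and were at a value of 6.66 (URB2) or less in at least 1 tumor-bearing rat, so the sizes of their differences, and their order, are uncertain. RBM6 ranged from 3.32 to 6.10 over the 20 alternatives, MERTK from 3.33 to 6.40 and ABCA1, which was called in 7 of them, from 2.48 to 5.55. RBM6 was at 0 in tumor-bearing rat 2, and SLC22A23 and RAPGEF3 were at 0 in tumor-bearing rat 3.

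The 10 genes with the most negative differences were MMS22L, CALB2, DCTPP1, LOC100910237, PTS, LOC691921, NMRAL1, MCM3, PRIM2 and RGD1310769, from -3.65 to -2.75. Several passed the mean through the tumor-bearing rats alone, among them MMS22L and CALB2, so the sizes and order are uncertain here too. DCTPP1, an enzyme that clears modified deoxycytidine triphosphate, was at 58.6, 111 and 83.7 against 380, 1547 and 805, with 91.9, 92 and 50.1 in vehicle rats (-3.24, SE 0.52, adjusted p = 0.00609). CALB2, the calcium-binding calretinin, was at 7.53, 9.81 and 25.6 against 197, 177 and 91.4 (-3.46, SE 0.73, adjusted p = 0.0206). MMS22L, a replication fork repair factor, and PRIM2, a subunit of DNA primase, differed by -3.65 and -2.83 (adjusted p = 0.0451 and 0.0313). MMS22L, at 9.20, 17.7 and 1.97 in the tumor-free rats, ranged from -4.24 to -2.61 and was called in 7 of 19 alternatives.

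**Figure D4:**
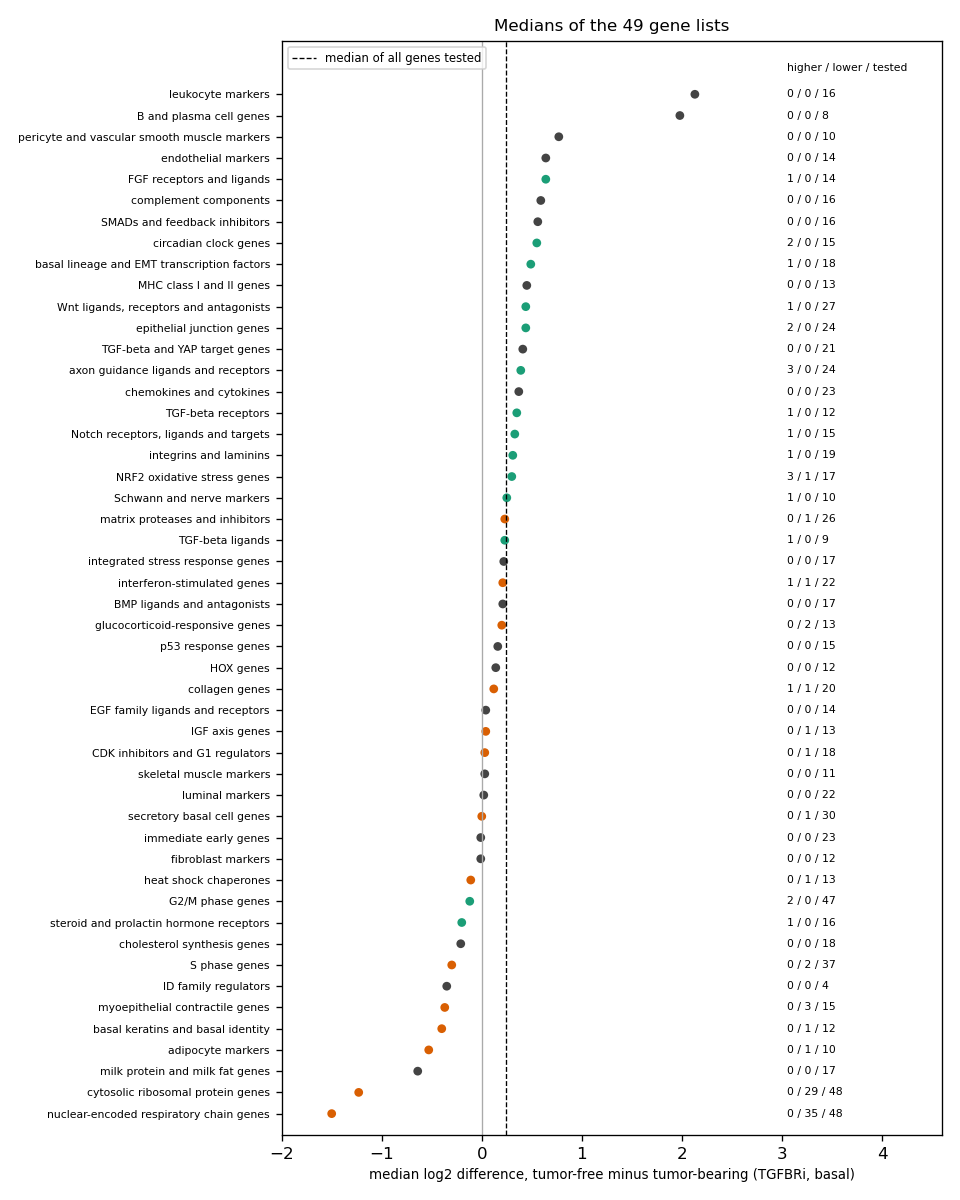
Median log2 difference, tumor-free minus tumor-bearing, of each of 49 gene lists in basal cells, with the counts of genes higher, lower and tested at the right. The dashed line is the median of all genes tested, 0.24; orange marks lists with at least as many genes lower as higher, green those with more higher and dark grey those with none called. The respiratory chain and ribosomal lists lie lowest and hold most of the called members, and the leukocyte list lies highest with 0 called.

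Markers of other cell types were held against the same comparison. With 1.96% of all genes higher and 3.62% lower, counts of 0 or 1 called gene in lists of this size are no result about a list. The 16 leukocyte markers tested had the highest list median, 2.13, and all 16 differences were positive, yet 0 were called. Their summed level was 178, 2902 and 177 CPM in tumor-free rats 1 to 3 and 213, 299 and 192 in tumor-bearing rats 1 to 3, so 1 library, tumor-free rat 2, stood apart in the sum. PTPRC, which encodes CD45, was at 1.67, 731 and 4.93 against 4.00, 2.00 and 7.71. The 8 tested B and plasma cell genes had a median of 1.98 with 0 called, and the 10 listed in the tables summed to 321 to 377 against 143 to 342. Fibroblast markers summed to 2449 to 11588 against 3261 to 10432, with 0 of 12 called, and COL1A1, the main fibrillar collagen, was at 15170, 79589 and 86858 against 68173, 18486 and 19567. Endothelial and pericyte lists had 0 called genes, and the single called adipocyte marker was CAR3 (-2.38, adjusted p = 0.0485). Adipocyte markers summed to 224, 1407 and 148 CPM in tumor-free rats 1 to 3 and to 446, 296 and 386 in tumor-bearing rats 1 to 3. Tumor-free rat 2 thus stood apart in this sum too. Without tumor-free rat 2, 30 respiratory and 27 ribosomal genes were called lower of 307 among all genes, with list medians of -1.61 and -1.46, and the part of other cell types in these results was not tested.

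The vehicle rats, which carried tumors without the drug, were set beside both TGFBRi groups. Both vehicle comparisons share samples with the main one, so their values are given side by side and not as further support. Tumor-bearing TGFBRi against vehicle rats had 134 genes higher and 40 lower, which is 1.01% and 0.3% of 13312 (1.31% in all, with 19.6% at an unadjusted p under 0.05). This count fell to 0 without vehicle rat 1, 2 or 3, and was 88 without tumor-free rat 2, 34 without tumor-free rat 3, and 1191, 111 and 46 without tumor-bearing rats 1, 2 and 3. Tumor-free TGFBRi against vehicle rats had 0 called genes in limma, edgeR and DESeq2, with 163 genes (1.22%) at an unadjusted p under 0.05 in limma, 249 in edgeR and 196 in DESeq2. The variance of each gene was estimated over all 3 groups, so these counts also carry the spread of the tumor-bearing TGFBRi rats. A count of 0 therefore does not show that tumor-free and vehicle rats were alike. The respiratory list had a median of 1.20 with 23 of 48 genes higher in tumor-bearing TGFBRi against vehicle rats, and of -0.32 with 0 called in tumor-free TGFBRi against vehicle rats. For the ribosomal list the medians were 0.82 and -0.29 with 0 called in either. TGFBR2 differed by -1.55 (adjusted p = 0.0461) and MYL9 by 1.33 (adjusted p = 0.0305) in tumor-bearing TGFBRi against vehicle rats, and TGFB1 by -1.69 (adjusted p = 0.0673). Median differences over all genes were -0.25 and -0.00.

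Whether the same difference held in luminal cells of the same rats was tested as basal difference minus luminal difference in a joint fit of 18 samples, with the rat as block. Of 14473 genes tested 0 passed (0%), while 1141 (7.88%) had an unadjusted p under 0.05. Without tumor-bearing rat 1, 2 or 3 the count was 2, 25 and 2. An effect in basal cells is therefore not shown to differ from that in luminal cells for any gene, with 3 rats a group. In this joint fit 111 genes (0.767%) were called in basal cells and 1 (0.00691%) in luminal cells, where 8.46% had an unadjusted p under 0.05. Respiratory genes had a luminal median of -0.32, and 6 of the 48 luminal differences were positive. Of the 48, 12 had an unadjusted p under 0.05 for the difference of differences. Ribosomal genes had a luminal median of -0.13 with 9 of 48 luminal differences positive, and 3 of 48 had such a p. Over the 13312 genes of the basal fit the luminal median was -0.04, and 6296 luminal differences were positive. NDUFB9 was at 7438, 4485 and 5163 in luminal cells of the tumor-free rats and at 6646, 8097 and 3915 in those of the tumor-bearing rats, which overlap. Its difference of differences was -1.96 (SE 0.55, unadjusted p = 0.00161, adjusted p = 0.402). MYL9 and IGFBP2, lower in basal cells, had luminal differences of 0.60 and 1.04, and their differences of differences were -1.92 and -2.09 (unadjusted p = 0.018 and 0.00632, adjusted p = 0.573 and 0.514). HMOX1 was in luminal cells at 41940, 39210 and 24445 against 14183, 3214 and 10459, a luminal difference of 2.13, and its difference of differences was -0.67 (adjusted p = 0.81). CLOCK, higher in basal cells, had a luminal difference of -1.33, and its difference of differences was 3.59 (SE 0.93, adjusted p = 0.339). RBM6 came nearest to the threshold, with a difference of differences of 5.48 (SE 0.95, adjusted p = 0.0811).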

How the data were processed

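Low-input RNA from sorted basal cells was sequenced as single-end reads. Per the methods and the submitters' processing notes, the authors aligned reads with STAR 2.5.1b to rn6, counted them per RefSeq gene with HTSeq without regard to strand and divided by DESeq2 1.30.1 size factors. The deposited values are such normalized counts, a signal scaled across the basal and luminal samples of SD rats together. Reads of a gene and of an antisense partner cannot be told apart in such counts. Whole reads were recovered by dividing by each library's step (all values above 0 came out whole within 0.001).

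Genes summing to at least 10 over the 9 basal samples of NMU-treated rats (13312 of 14655 listed) were tested with limma 3.58.1 (trend, robust, R 4.3.3) on log2(value + 1), 1 mean per group. The pseudocount of 1 understates differences of low genes. Basal and luminal cells were joined in a limma fit of 18 samples with the rat as block, which is the pairing of the design (consensus correlation 0.1644). edgeR 4.0.16 and DESeq2 1.42.0 were run on recovered reads as alternatives, among other settings. The fit was also run on simulated counts, and the outcome is not reported here. Summed levels are in CPM of reads on genes.

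Rats are separate animals, numbered in accession order. Members, the 49 gene lists and tests were chosen with earlier results of these data known. Named genes were, in each direction, the 10 largest differences among called genes with a mean of at least 50 and no overlap between groups, the called members and up to 4 further members of each list by p, and a fixed set of keratin and TGF-beta genes. Gene positions in rn6 and transcript lengths were not analysed here. No sample was dropped or imputed. Some genes that met these rules are not reported here.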

Additional observations from a re-analysis of the deposited data

How the results depend on the processing

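Of the genes tested for tumor-free against tumor-bearing TGFBRi rats, 5.58% were called (261 higher, 482 lower). The share was 12.1% in DESeq2 (625 higher, 992 lower), 15.4% with all 17 SD basal samples (1124, 994), 10.9% with a mean of at least 50 (381, 592), 0.0751% in limma without trend and robust variances (7, 3) and 0.811% with the 6 TGFBRi samples alone (9, 92). With 1 of the 9 libraries left out it ranged from 0.71% to 15.1% (12 to 1083 higher, 82 to 917 lower), lowest without tumor-free rat 1 and highest without tumor-bearing rat 1. edgeR, TMM scaling, pseudocounts of 0.5 and 10, no filter and centring gave 3.84% to 5.69%, and edgeR (187, 554), no filter (178, 379) and centring (185, 573) had the fewest higher. The count for tumor-bearing TGFBRi against vehicle rats, 174, was 266 in edgeR, 1049 in DESeq2, 1377 with 17 samples, 5 without trend and robust variances, 324 with a mean of at least 50, 81 without a filter and 0 to 1191 with 1 library left out. The test of basal against luminal differences called 0 genes, 0 with edgeR, 0 with the 12 TGFBRi samples, 0 with no replicate block and 0 to 25 with 1 rat left out (25 without tumor-bearing rat 2). No paired analysis was possible for the basal comparison because its groups are different rats. Differences changed sign for genes not called: ACTA2 (-0.13 in DESeq2, -0.12 in edgeR, -0.01 centred, and -0.28 to 0.70 with 1 library left out, negative without tumor-free rat 3 or tumor-bearing rat 2 or 3), TGFB2 (-0.21 in DESeq2, -0.19 in edgeR, and -0.69 to 0.78 with 1 library left out, negative without tumor-free rat 2 or tumor-bearing rat 2), KRT18 (-0.04 to 0.44, negative without tumor-bearing rat 3), and, without tumor-bearing rat 2, ID3 (-0.26 to 0.11), TGFBR1 (-0.36 to 0.77) and TGFBR3 (-0.04 to 0.72). Of all results for called named genes under alternatives, 1818 were still called, 721 were not and 0 changed sign. The cause of these changes was not tested. Centring, leaving out vehicle or luminal rats, and the alternatives for list counts and, other than edgeR and DESeq2, for the vehicle comparisons were chosen after seeing the data. With 3 rats a group, a p that misses the threshold does not show equality.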

Other observations

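In basal cells of young SD rats of the same series that are labelled D0 and had no NMU, the respiratory chain genes summed to 12047 to 13376 CPM in 4 control rats and to 8573 to 14515 in 4 drug-treated rats. The ribosomal protein genes summed to 17159 to 20607 and 13038 to 19571 in the same rats. No test was run between them and the NMU-treated rats.

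In luminal cells of NMU-treated rats the respiratory genes summed to 10110 to 12185 in the tumor-free rats, 10321 to 20351 in the tumor-bearing rats and 10910 to 53410 in the vehicle rats. The ribosomal genes summed to 25442 to 29109, 25118 to 52961 and 35235 to 130969. The Schwann and nerve marker list, which shares SOX10 with the basal factors, summed in basal cells to 625 to 723 in tumor-free, 299 to 425 in tumor-bearing and 751 to 817 in vehicle rats. SOX10 alone was at 461 to 551, 148 to 302 and 446 to 616 CPM in the same order, so it made up much of each sum.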
